A study of Rattus norvegicus with 24 samples.

Results

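Island-dense megabase windows are stretches of the rat genome in which many CpG island probes of the array lie close together. The chromosomes chr1 to chr20 of the rn4 build were divided into windows of 1000000 bp by the start of each probe, and a window was called dense when it held 120 or more probes. This rule used the positions of the probes and no measured value. It gave 138 dense windows out of 2032 windows with a probe (6.79%), and these held 24110 of the 89403 probes on chr1 to chr20 (27.0%) and of the 93024 probes of the array. The remaining 65293 probes on chr1 to chr20 are called the other probes.

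DNA methylation was measured in mammary tissue of female Sprague-Dawley rats, with 1 array per sample and 24 arrays in all. The groups were 3 normal mammary glands of rats that were not irradiated, 7 carcinomas of rats given 2 Gy of whole-body gamma rays from 137Cs at 3 weeks of age (IR-3W, pre-pubertal), 7 carcinomas after the same dose at 7 weeks of age (IR-7W, post-pubertal) and 7 spontaneous carcinomas of rats that were not irradiated. All rats were kept on a corn oil diet that began after the ages of irradiation. The study asked how methylation differed between tumors and glands, and between tumors that followed exposure at the 2 ages. Tumors 6 and 7 of IR-3W came from 1 rat, as did tumors 1 and 2 of IR-7W. The sources name no separation of cell types, so a change in the mixture of cell types cannot be told apart from a change of methylation within cells.

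CpG islands are short stretches rich in CG pairs that often lie at gene promoters. Most are kept free of methylation in normal cells, and in cancers some of them gain methylation, often over several neighboring islands at once. Islands gather where genes are dense and around some clusters of developmental genes, so a single window can hold islands of many genes. Here the fragments carrying methylated DNA were captured with a methyl-CpG-binding protein and labeled with Cy5, and DNA of the same sample without capture was labeled with Cy3. Each value below is the log2 of Cy5 over Cy3 minus the median of its array, so 0 marks the typical probe of that array and a shift shared by all probes cannot be seen. Ratios were spread over a low and a high population, and a probe over 1.5 on an array is called a high ratio.

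There were 12 slides and 6 days of scanning. The 3 glands shared their day of scanning with only 1 tumor, number 3 of the spontaneous group. In the dense windows, 90.9% to 99.2% of probes per array were well above background in Cy3 and 75% to 96.4% in Cy5. In Cy5 the mean was 92.4% ± 4.32 (SD) for the glands, against 85.7% ± 5.76 for the 21 tumors, and the part of this difference in the results was not tested. No pair of arrays was alike enough to be a copy, since correlations between arrays over the dense probes ran from 0.801 to 0.963. Tumor 1 of IR-3W stood apart, with an SD over all probes of 2.27 against 1.16 to 1.65 on the 23 other arrays.

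The dense windows were unevenly spread over the chromosomes. Chromosomes 1 and 10 held 22 each and chromosome 7 held 14, while chromosome 13 held none. As a share of the windows with a probe, chromosome 10 came first at 22%, followed by chromosome 12 at 18.6%, chromosome 19 at 13.7% and chromosome 20 at 13.0%. Of the 138 dense windows, 79 had a dense neighbor and 59 stood alone, in 89 separate stretches. The longest stretch held 5 windows at chr20:3000000-7999999, with 910 probes. The number of probes ran from 120 to 524 per dense window with a median of 155, against a median of 30 over all windows. At the edge of the rule, 3 windows held exactly 120 probes and 4 windows just outside it held 119.

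Dense windows held more runs of probes, not longer ones. Probes at most 1000 bp apart were joined into runs, which stand in for islands. A dense window held 26.4 runs on average (11 to 74), whereas other windows held 5.40. The runs themselves were of like size, with a mean of 6.63 probes per run in dense windows and 6.38 elsewhere, and a median span of 626 bp and 639 bp. Across the 138 windows the number of runs and of probes had a Pearson correlation of 0.92, given as a description of the array's layout.

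Dense windows gave a higher mean log2 ratio than the other probes of chr1 to chr20 on every array. The mean log2 ratio of the dense probes minus that of the other probes was 0.19, 0.096 and 0.19 in normal glands 1, 2 and 3. In IR-3W it was 0.16 at the lowest, 0.21 at the median and 0.43 at the highest, in IR-7W 0.13, 0.19 and 0.22, and in spontaneous tumors 0.093, 0.19 and 0.24. All 24 values were above 0, the groups overlapped, and the highest value belonged to tumor 1 of IR-3W. The mean over arrays was 0.19 ± 0.068 (SD, n = 24, two-sided sign-flip permutation test, p = 2e-05, the smallest that 100000 resamples can give). All arrays carry the same 2 sets of probes, so this test speaks only to the spread over arrays. The sets were not matched on melting temperature or CpG content, and the part of these in the difference was not tested. The medians of the 2 sets of probes lay closer, 0.034 apart on average, and in glands 2 and 3 the dense median was the lower one (-0.048 against -0.013, and -0.039 against -0.034).

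**Figure D1:**
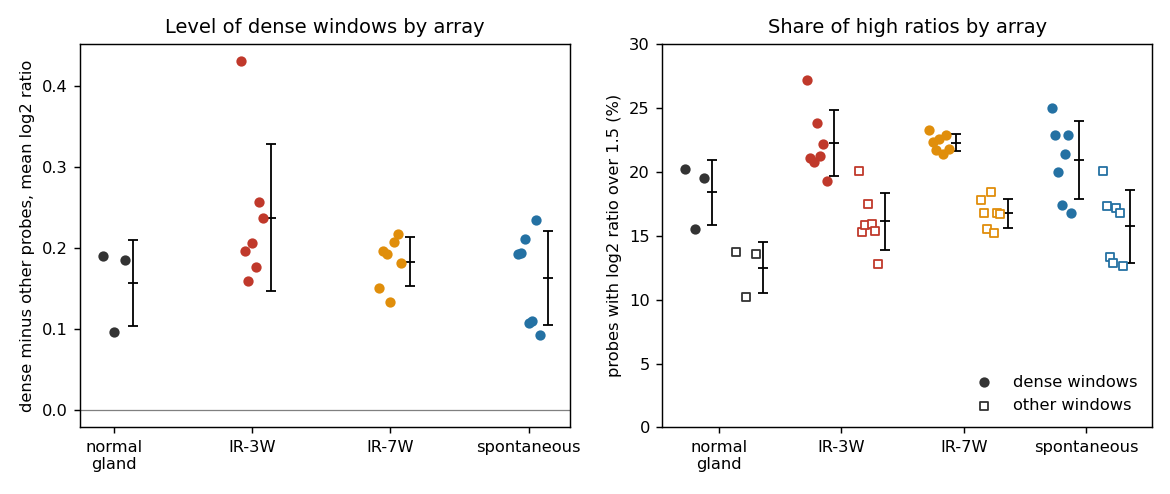
Left, mean log2 ratio of dense minus other probes for each of the 24 arrays by group. Right, percent of probes with a log2 ratio over 1.5 in dense windows (filled circles) and in other windows (open squares). Points are arrays and bars the group mean ± SD; every array lies above 0 on the left, and on the right the dense share exceeds the other share on all 24 arrays.

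The share of high ratios was compared in the same way. In dense windows 20.2%, 15.5% and 19.5% of probes were high in the 3 glands, and 16.8% to 27.2% in the tumors. Among the other probes the share ran from 10.2% to 13.7% in glands and from 12.6% to 20.1% in tumors. The dense share was higher than the other share on all 24 arrays, by 5.65 percentage points ± 0.852 (SD, n = 24, two-sided sign-flip permutation test, p = 2e-05, the smallest that 100000 resamples can give). This test again speaks only to the spread over arrays, which share these probes. The probes were not matched on melting temperature or CpG content. Of the dense probes, 13.3% were high on all 24 arrays, against 8.30% of the other probes, while 64.6% and 68.0% were high on none. A changing state was no more frequent in dense windows, where 22.1% of probes were high on some arrays and not on others, against 23.7% elsewhere. Likewise, 525 dense probes (2.18%) and 1440 other probes (2.21%) were high in 0 of 3 glands and in 11 or more of the 21 tumors.

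The signal rose with the number of probes in a window, below the limit of 120 as well as above it. In normal glands the share of high ratios was 10.8% ± 1.73 (SD, n = 3) in windows of 20 to 39 probes, 12.8% ± 1.99 at 40 to 79, 14.2% ± 2.15 at 80 to 119, 17.4% ± 2.39 at 120 to 199 and 20.6% ± 2.83 at 200 to 524. In tumors the same classes gave 14.2% ± 2.06 (SD, n = 21), 16.6% ± 2.12, 17.7% ± 2.16, 20.8% ± 2.24 and 23.8% ± 2.50. The mean log2 ratio rose through these 5 classes on all 24 arrays. The sparsest windows, with 1 to 19 probes, broke the order at 11.2% in glands and 15.4% in tumors. The unenriched Cy3 signal, centered in the same way, rose too, from a mean of -0.22 at 20 to 39 probes to -0.04 at 200 or more, and its part in the gradient was not tested. Within the dense windows alone, the log2 number of probes and the mean level had a Pearson correlation of 0.11 over 138 windows.

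**Figure D2:**
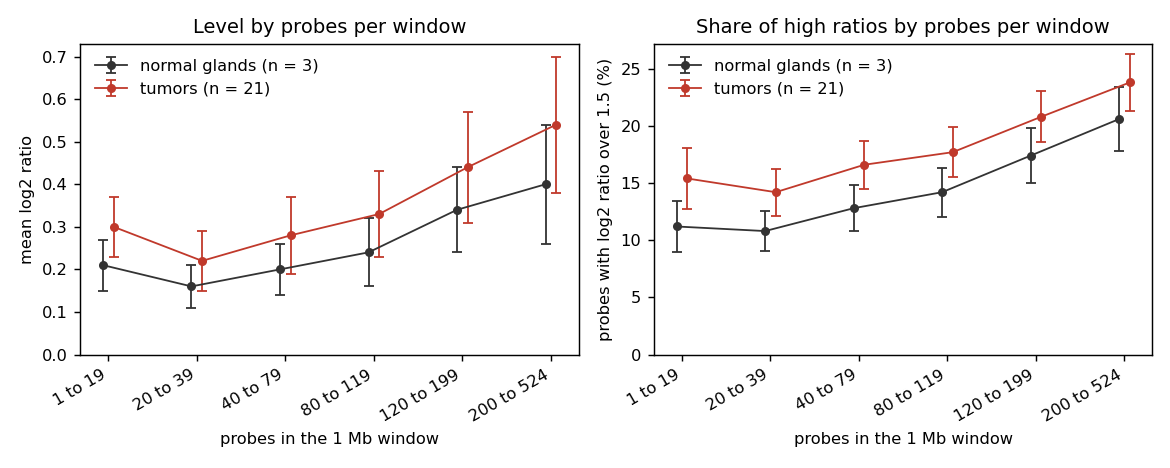
Mean log2 ratio (left) and percent of probes with a log2 ratio over 1.5 (right) in windows grouped by their number of probes, for the normal glands (n = 3) and the tumors (n = 21). Points are means over arrays and bars the SD; both measures rise from windows of 20 to 39 probes to those of 200 to 524.

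The higher share in dense windows held for islands of each size. In runs of 4 to 6 probes, 22.4% of dense probes were high in glands and 25.4% in tumors, against 16.3% and 19.3% of the other probes. In runs of 10 or more probes the dense shares were 16.9% and 20.8%, against 8.21% and 13.4%. The gap between dense and other probes in these long runs was 8.67 percentage points ± 0.596 (SD, n = 3) in glands and 7.40 ± 1.36 in the 21 tumors. In runs of 1 to 3 probes it was smaller, 2.05 ± 0.561 and 2.77 ± 1.06. The gap was above 0 on all 24 arrays in each of the 4 size classes.

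Dense windows differed widely among themselves. Their mean log2 ratio over the 24 arrays ran from -0.31 to 2.35, with quartiles at 0.16, 0.38 and 0.66. The highest level was in chr18:0-999999, with 153 probes, where 65.1% of probes were high in glands and 69.7% in tumors. Its values were 2.40, 1.64 and 2.44 in the 3 glands, and 1.75 at the lowest, 2.27 at the median and 4.03 at the highest in the 21 tumors. It was followed by chr18:30000000-30999999 at 1.67. The lowest levels were in chr10:37000000-37999999 and chr10:64000000-64999999, both at -0.31, where 3.76% and 1.78% of probes were high in glands. With normexp correction their levels were -0.07 and -0.11. The 2 windows with the highest and the 2 with the lowest level held similar numbers of probes, from 124 to 153.

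The window with the most probes, chr7:10000000-10999999, held 524 probes in 74 runs. Its level was 1.34, 0.93 and 1.36 in the glands and 0.82, 1.33 and 2.41 at the lowest, median and highest tumor, so glands and tumors overlapped. Its mean level of 1.30 over the 24 arrays was 0.67 with medians over probes and 0.82 with normexp correction. It also had one of the 3 largest SDs over the 21 tumors, 0.31, after chr18:0-999999 at 0.49 and chr4:76000000-76999999 at 0.35. In all 3 the highest tumor was IR-3W 1. The next windows by number of probes were chr16:19000000-19999999 with 438, chr7:114000000-114999999 with 366, chr1:95000000-95999999 with 333 and chr7:11000000-11999999 with 316. Their mean levels over the 24 arrays were 0.51, 0.76, 0.38 and 0.91, and with medians over probes in place of means 0.02, 0.21, -0.18 and 0.20. Over the 138 windows, the SD among tumors and the mean level had a Pearson correlation of 0.93, and 0.86 without IR-3W 1.

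For the whole set of dense windows, the excess over the other probes was not shown to differ between tumors and glands when taken on means. The dense-minus-other difference averaged 0.195 ± 0.069 (SD) over the 21 tumors and 0.157 ± 0.053 over the 3 glands, a gap of 0.038 (two-sided exact permutation test over the 2024 choices of 3 arrays, p = 0.311; the smallest p possible is 0.000988). The gap was 0.007 without gland 2 and 0.054 without gland 1. With normexp background correction it was -0.007 (exact permutation test, p = 0.670). Within the slide that held 1 tumor and 1 gland it was 0.115. Taken on medians of probes instead of means, the tumors were higher by 0.049 (exact permutation test, p = 0.000988). The share of high ratios in dense windows was 21.8% ± 2.32 (SD) over the 21 tumors and 18.4% ± 2.54 over the 3 glands, higher in tumors by 3.39 percentage points (exact permutation test, p = 0.0405), and with high ratios set at over 2 by 2.49 points (exact permutation test, p = 0.114). The other probes had a rise of like size, and the dense share minus that of the other probes differed by -0.314 percentage points, tumors minus glands (exact permutation test, p = 0.579). Without gland 2 the difference in the share was 1.94 points (exact permutation test, p = 0.285), and with normexp background correction it turned to -1.39 (exact permutation test, p = 0.682). Within the scan day that held all glands, the single tumor exceeded their mean by 1.58 points. Over the 6 pairs of the 4 groups, none differed after Benjamini-Hochberg adjustment, and the smallest adjusted p was 0.300 for the dense-minus-other difference and 0.10 for the share of high ratios (exact permutation tests).

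Single probes of the dense windows changed in both directions. With limma and Benjamini-Hochberg adjustment over all probes, 5114 of the 24110 dense probes differed between tumors and glands at an adjusted p under 0.05, which is 21.2% against 22.8% of all 93024 probes. Of these, 2742 were higher and 2372 lower in tumors, which is 11.4% and 9.84% of the dense probes against 10.5% and 12.3% of all probes. Higher probes thus made up 53.6% of the calls in dense windows and 43.4% of those among the other probes. The majority in dense windows turned with normexp correction (2006 higher, 2293 lower), and at an unadjusted p under 0.001 (1082 and 1250). On a rebuilt LogOdds scale, which scores a probe as methylated or not against others of its array, 6666 dense probes were higher and 87 lower. The split over all probes on that scale is not given. The rebuilt scale leaves out melting temperature. With its own LogOdds the paper reports a general loss of methylation in tumors over all probes, so the rebuilt scale is not that of the study. With the slide as a block 4 dense probes were called, and with the scan day as a block 148. Leaving out gland 2 gave 2166 calls (1036 higher, 1130 lower) and leaving out gland 3 gave 2164 (1052 and 1112). At an unadjusted p under 0.05 and under 0.005 there were 7942 and 3954 dense probes, 32.9% and 16.4% against 34.6% and 18.1% of all probes. All 21 tumors lay above all 3 glands at 803 dense probes (3.33%, against 2.91% of all probes) and below them at 1267 (5.26%, against 6.95%).

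Runs showed where the calls gathered. Of 3028 dense runs with 4 or more probes, 120 had most of their probes called higher in tumors (3.96%, against 3.48% of all 11324 such runs), and 60 had most called lower (1.98%, against 3.46%). The 120 runs lay in 72 of the 138 windows. Most of these windows had 1 or 2 such runs, but chr4:80000000-80999999 had 9 and chr7:141000000-141999999 had 8, followed by chr9:74000000-74999999 with 5. In 1119 dense runs, 37.0%, no probe was called, against 31.0% of the runs elsewhere.

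As whole windows, 17 of the 138 dense windows were called, and all 17 were higher in tumors. This is 12.3% against 11.8% called higher among the 1756 windows with 10 or more probes. By limma 0 were called lower, against 7.35% of all windows, and 0 also by the methods' t-test, but 15 of 43 called windows were lower with medians over probes and 2 of 15 with probes above background alone. The shares over all windows in these alternative settings are not given, so these counts have no background to be read against. In both directions together, 34 dense windows had an unadjusted p under 0.05, 24.6% against 31.3% of all windows, and the share called was 12.3% against 19.1%. The tumor-minus-gland difference was positive in 110 dense windows (79.7%, against 60.4% of all windows), with a median of 0.10 against 0.05 over all windows and a range from -0.15 to 0.85. The 17 windows lay on 10 chromosomes. Their mean level in normal glands ran from -0.44 to 0.36, a description only, since the same gland values entered the calls, and over the 138 windows the gland mean and the difference had a Pearson correlation of -0.02. All 21 tumors lay above all 3 glands in 10 dense windows (7.25%, against 4.38% of all windows) and below them in 1 (0.725%, against 2.96%). No dense window was called with the slide or the scan day as a block, where 1 tumor stands against 1 gland or against 3. The differences of the 4 largest windows there were 0.36 to 0.74 with the slide and 0.37 to 0.51 with the scan day, against 0.39 to 0.85. With normexp background correction 1 was called, lower in tumors. Leaving out gland 2 gave 6 called windows and leaving out gland 3 gave 7.

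**Figure D3:**
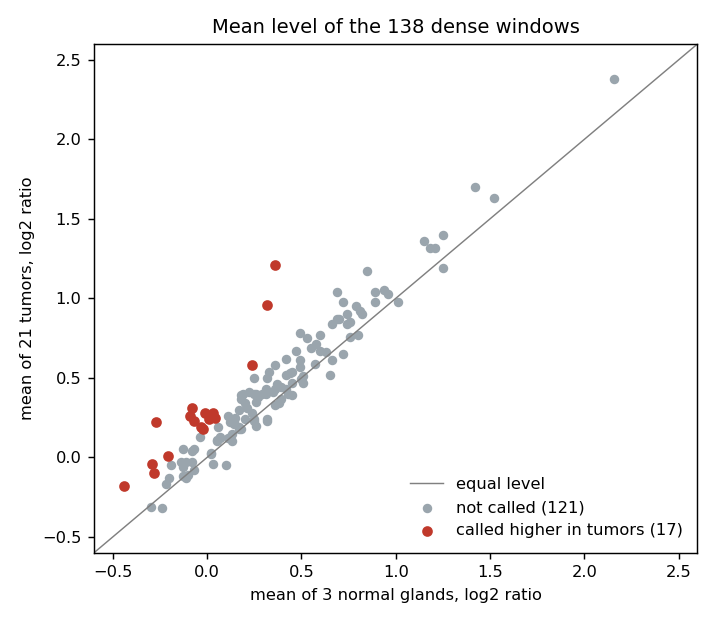
Mean log2 ratio of each of the 138 dense windows in the 3 normal glands (x axis) and in the 21 tumors (y axis), with the line of equal level. The 17 windows called higher in tumors are red and lie above the line at gland levels from -0.44 to 0.36, and no called window lies below it.

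The largest difference was in chr4:80000000-80999999, with 196 probes in 27 runs. Its level was 0.51, 0.12 and 0.45 in the glands, whereas it was 0.74, 1.17 and 1.63 at the lowest, median and highest IR-3W tumor, 0.94, 1.38 and 1.5 in IR-7W, and 0.82, 1.21 and 1.77 in spontaneous tumors. Every tumor of every group exceeded every gland. The difference was 0.85 ± 0.17 (SE, limma, adjusted p = 0.00218), with 90 probes called higher and 2 lower, and the 46.9% of its probes called was the largest share of any dense window. This share was 20.9% without gland 2, 26.0% without gland 3, 28.1% with normexp correction, and 0% and 0.51% with the slide and the scan day as a block. High ratios rose from 15.0% of its probes in glands to 40.8% in tumors. Counted on group means, 57 probes crossed 1.5 upward and 1 downward. On the scan day of the glands the single tumor measured 0.87, which is 0.51 above the mean of the glands and above each of them. The fit with normexp correction gave 0.31 (limma, adjusted p = 0.147).

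Within this window the increase was spread over neighboring runs and was not seen in the first and the last one. The run at chr4:80545812-80546948, with 12 probes, measured 0.11, -0.43 and -0.17 in the glands and 0.37, 1.66 and 3.05 at the lowest, median and highest tumor, and all 12 probes were called higher. The run of 17 probes at chr4:80532639-80535406 averaged 0.03 ± 0.14 in glands (SD, n = 3) and 1.47 ± 0.40 in tumors (SD, n = 21), with 14 probes called higher. Between them and around them most probes were called higher in 10 of the 27 runs, 1 of which had only 2 probes. By contrast, the run at chr4:80299736-80300379, the first of the window, averaged 0.04 in glands and -0.34 in tumors, and the last run, at chr4:80948014-80948625, averaged -0.24 and -0.31. The runs with the highest gland means did not differ beyond their spread, with 2.92 ± 0.52 in glands and 2.93 ± 0.57 in tumors at chr4:80775496-80775829 and 2.13 in both at chr4:80592898-80593392. A run in between, at chr4:80472476-80472941, went from 1.42 ± 0.47 to 2.72 ± 0.45.

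The next window was chr7:141000000-141999999, with 262 probes in 35 runs. Its level was 0.57, 0.14 and 0.25 in the glands and 0.62, 0.95 and 1.58 at the lowest, median and highest tumor, again with no overlap. The difference was 0.64 ± 0.13 (SE, limma, adjusted p = 0.00220), with 78 probes called higher and 6 lower. High ratios rose from 16.9% to 34.8% of its probes. The single tumor of the gland scan day measured 0.80, and the fit with normexp correction gave 0.21 (limma, adjusted p = 0.173). All 8 runs with most probes called higher lay from chr7:141698919 onward. The run of 14 probes at chr7:141698919-141701090 averaged 0.08 ± 0.33 in glands and 1.21 ± 0.30 in tumors, and that of 17 probes at chr7:141717635-141720062 averaged -0.20 ± 0.24 and 0.88 ± 0.39 (SD, n = 3 and n = 21). The run of 12 probes at chr7:141420911-141422767, nearer the middle, averaged -0.33 in both.

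**Figure D4:**
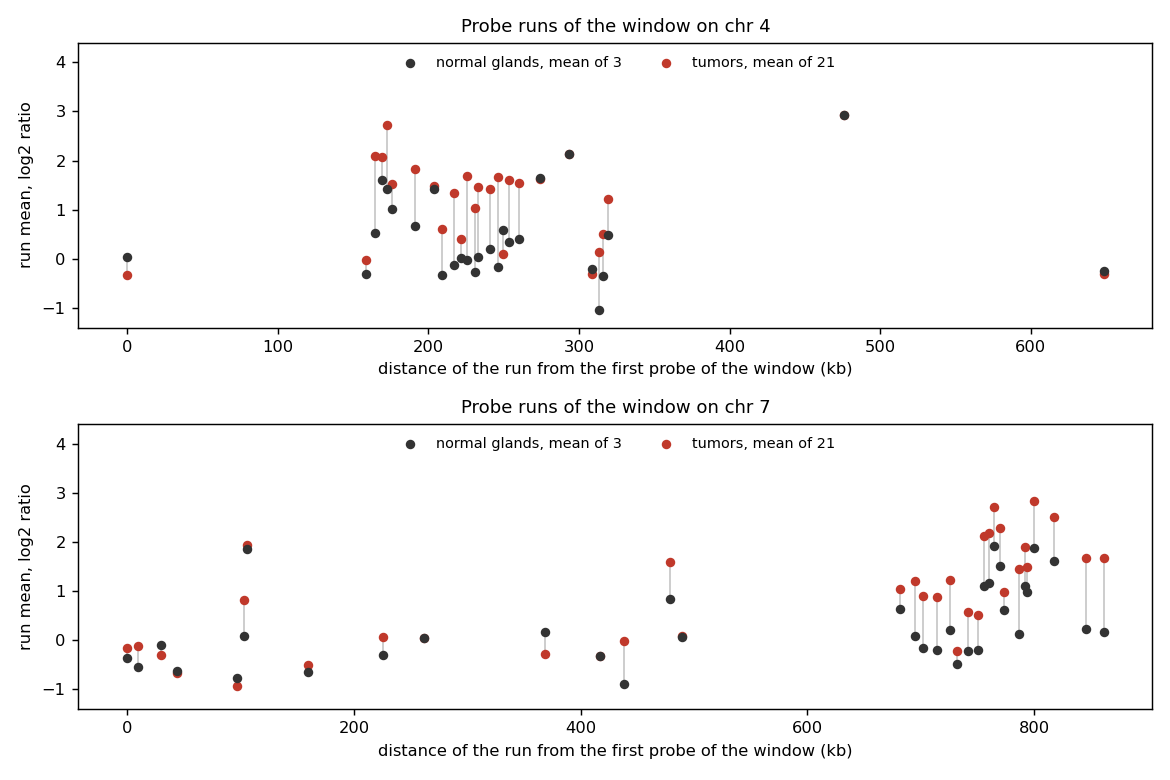
Mean log2 ratio of each probe run in the dense windows on chromosomes 4 and 7 with the largest differences, by distance in kb from the first probe of the window. Black points are the mean of the 3 normal glands, red points the mean of the 21 tumors, and grey lines join the 2 values of a run; most runs with red well above black lie between 164.7 and 319.5 kb in the window on chromosome 4 and from 695.2 kb on in that on chromosome 7, with a few unraised runs among them.

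The remaining pair of windows were neighbors near the end of chromosome 1. In chr1:249000000-249999999, with 139 probes, the glands measured -0.20, -0.24 and -0.36 and the tumors -0.09, 0.18 and 0.64 at the lowest, median and highest. In chr1:250000000-250999999, with 161 probes, the glands measured -0.02, -0.20 and -0.03 and the tumors 0.09, 0.31 and 0.51. All 21 tumors exceeded all 3 glands in both. The differences were 0.49 ± 0.11 and 0.39 ± 0.08 (SE, limma, adjusted p = 0.00296 and 0.00218). Unlike the windows on chromosomes 4 and 7, few probes crossed into the high range, 2 and 12 on group means. With normexp correction the differences were 0.15 and 0.09 (limma, adjusted p = 0.110 and 0.339).

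**Figure D5:**
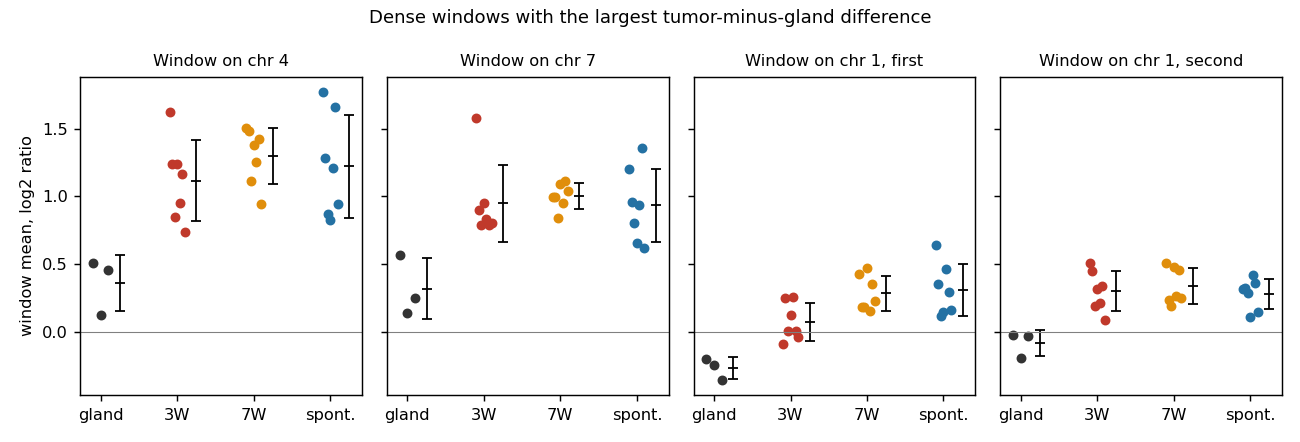
Mean log2 ratio of the 4 dense windows with the largest difference, by group, for each array; from left to right the window on chromosome 4, the window on chromosome 7, and the first (starting at 249000000) and the second (starting at 250000000) window on chromosome 1. Points are arrays and bars the group mean ± SD; in each panel all 21 tumors lie above the 3 glands.

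The other 13 called windows had smaller differences, down to 0.18 ± 0.04 (SE) in chr5:59000000-59999999 (limma, adjusted p = 0.00364), with the median of the 17 at 0.26. Their calls often mixed both directions. In chr14:83000000-83999999, 25 probes were called higher and 19 lower, and in chr5:136000000-136999999, 28 and 17. The mean of both was still higher in all 21 tumors than in the glands. In the latter it was -0.29 ± 0.11 (SD) in the 3 glands and -0.04 ± 0.08 in the 21 tumors. The dense window with the second largest share of called probes, chr14:82000000-82999999 at 37.6%, had 20 probes higher and 30 lower, and its mean was -0.10 in glands and -0.11 in tumors. The share was 14.3% without gland 2, 18% without gland 3, and 0% and 0.752% with the slide and the scan day as a block. These examples, apart from the last, were picked after their values were seen.

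No dense window was called lower on the values as reported, and the 4 with the most negative differences are given as values. In chr10:46000000-46999999, with 144 probes, the glands measured 0.10, 0.08 and 0.13 and the tumors -0.22, -0.02 and 0.06 at the lowest, median and highest, so that all tumors lay below all glands. The difference was -0.15 ± 0.06 (SE, limma, adjusted p = 0.0860), with 30 probes called lower and 7 higher. In chr19:10000000-10999999 it was -0.14 ± 0.11 (adjusted p = 0.409), in chr1:187000000-187999999 -0.09 ± 0.07 (adjusted p = 0.464) and in chr10:37000000-37999999 -0.09 ± 0.07 (adjusted p = 0.395), all by limma, and glands and tumors overlapped in these 3. On the rebuilt LogOdds all 4 differences were positive (0.87 in chr10:46000000-46999999, 0.77 in chr19:10000000-10999999, 1.02 in chr1:187000000-187999999 and 1.25 in chr10:37000000-37999999), whereas some were called lower in other settings of the limma fit. The window chr10:46000000-46999999 was called with normexp correction (-0.14, adjusted p = 0.0226), with probes above background alone (-0.19, adjusted p = 0.0328) and with medians over probes (-0.21, adjusted p = 0.0154). By limma, chr10:37000000-37999999 was called with probes above background alone (-0.18, adjusted p = 0.00991) and chr19:10000000-10999999 with medians (-0.17, adjusted p = 0.00887).

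Among single probes of the dense windows, 3 of the 4 largest increases lay in 1 run of 8 probes at chr1:209181706-209183256. The strongest, A_45_P00973169 at chr1:209182098-209182150, measured -1.0, -1.05 and -0.76 in the glands and -0.68, 1.88 and 3.29 at the lowest, median and highest tumor. All tumors exceeded the glands, but the lowest, IR-3W 3, did so narrowly. The difference was 2.76 ± 0.53 (SE, limma, adjusted p = 0.00077). Averaged over the run, of which 7 probes were called higher, the glands measured -0.55, -0.49 and -0.48, IR-7W tumors 1.17, 2.00 and 2.50, IR-3W tumors -0.06, 1.47 and 2.65, and spontaneous tumors 0.52, 1.72 and 2.74 at the lowest, median and highest. The remaining one, A_45_P03681307 at chr4:80526455-80526514, lay in the changed part of the chromosome 4 window and differed by 2.66 ± 0.44 (SE, limma, adjusted p = 0.000248). Its Cy3 signal, the denominator, was above background on only 15 of the 24 arrays, so the size of its difference is uncertain.

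The 4 largest decreases were in probes at 0.82 or more in each gland. Probe A_45_P00963175 at chr1:207206587-207206631 measured 1.80, 1.51 and 1.71 in the glands and -0.87, -0.24 and 1.34 at the lowest, median and highest tumor, with all tumors below the glands. Its difference was -1.85 ± 0.28 (SE, limma, adjusted p = 0.000156), and 4 of the 5 probes of its run were called lower. Probes A_45_P08071580 at chr10:86090768-86090812 and A_45_P03999280 at chr4:149191263-149191307 both differed by -1.54, and again all tumors lay below all glands. In the run of the first, 2 of 7 probes were called lower, with differences from -1.54 to 0.56. In the run of the second, 5 of 7 were called lower. In the case of A_45_P15823808 at chr1:187510558-187510606, the glands measured 2.61, 1.73 and 2.47, the IR-7W tumors -0.28, 0.41 and 0.74, the spontaneous tumors -0.54, 0.39 and 1.09, and the IR-3W tumors 0.14, 1.63 and 3.59, so that IR-3W overlapped the glands and the other tumor groups did not. Its difference of -1.52 ± 0.55 (SE, limma, adjusted p = 0.0490) was lost without any 1 gland and without most single tumors (adjusted p = 0.171, 0.0899 and 0.188 without gland 1, 2 and 3). On the series matrix and with 1 tumor per rat it was lost too (limma, adjusted p = 0.0503 and 0.0634). The methods' t-test (adjusted p = 0.0650) and the replicate block (limma, adjusted p = 0.148) also lost it. In its run, 1 of 7 probes was called lower. None of these 8 probes was called with the slide or the scan day as a block, fits that set 1 tumor against 1 gland and against 3. The differences there kept their direction, such as 2.50 and 2.39 for A_45_P00973169 and -1.68 and -1.85 for A_45_P00963175.

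Between the ages at irradiation, no dense window and no dense probe passed the test on the values as reported. In other settings some probes did. The paper describes the carcinomas after post-pubertal irradiation as mostly estrogen receptor (ER) positive, and those after pre-pubertal irradiation as ER negative. It states that age and ER status could not be told apart. The part of ER status in the differences between ages was not tested. The dense-minus-other difference was 0.183 ± 0.030 (SD) over the 7 tumors of IR-7W and 0.238 ± 0.091 over those of IR-3W, a difference of -0.055 (two-sided exact permutation test over 3432 splits, p = 0.124), and -0.023 without IR-3W 1. On medians of probes it was -0.034 (exact permutation test, p = 0.00466). By limma 0 of 24110 dense probes were called, against 0% of all probes, and 0 also by the methods' t-test. On the rebuilt LogOdds limma called 40 (0.166%, against 0.218% of all probes), with scaled arrays 25 (0.104%, against 0.144%) and without IR-7W 7 it called 11 (0.0456%, against 0.0881%), all of them higher in IR-7W. At an unadjusted p under 0.05 there were 1465 dense probes, 6.08% against 6.49% of all probes. Of the 247 dense probes at an unadjusted p under 0.005 (1.02%, against 1.21% of all probes), 171 were higher and 76 lower in IR-7W, so 69.2% were higher, against 80.3% over all probes at that p. For windows limma called 0 of 138, against 0.114% of all windows, and 2 dense windows had an unadjusted p under 0.05, 1.45% against 9.17%, while the methods' t-test called 0. The difference was negative in 109 of the 138 dense windows (79.0%), with a median of -0.055, and in 958 of the 1756 windows in all (54.6%), with a median of -0.012. Without IR-3W 1 it was negative in 77 dense windows, with a median of -0.005, and in 802 of all windows, with a median of 0.010.

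The dense window with the smallest p between ages was chr1:249000000-249999999, which was also among those most raised in tumors. Its lowest, median and highest values were -0.09, 0.00 and 0.26 in IR-3W and 0.16, 0.23 and 0.47 in IR-7W. The groups overlapped between 0.16 and 0.26. The difference was 0.21 ± 0.07 (SE, limma, adjusted p = 0.357). The next were chr5:151000000-151999999 with -0.12 ± 0.05 (SE, limma, adjusted p = 0.465) and chr7:118000000-118999999 with -0.20 ± 0.09 (SE, limma, adjusted p = 0.537).

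Of the 2 dense probes with the smallest p between ages, 1 lay in the raised window of chromosome 4. Probe A_45_P03681235 at chr4:80517388-80517447 measured -0.56, -1.47 and -0.48 in the glands, -1.02, -0.03 and 1.17 at the lowest, median and highest IR-3W tumor, 1.14, 2.06 and 2.71 in IR-7W and 0.58, 1.53 and 3.17 in spontaneous tumors. The difference between ages was 2.00 ± 0.33 (SE, limma, adjusted p = 0.109). It did not stand alone. All 9 probes of its run, chr4:80516816-80517807, were higher in IR-7W, by 0.53 to 2.00, and 8 of them had an unadjusted p under 0.005. The run averaged 0.14, 0.44 and 1.31 at the lowest, median and highest IR-3W tumor, 1.33, 1.88 and 2.66 in IR-7W, 0.89, 1.38 and 2.62 in spontaneous tumors and -0.03, -0.39 and 0.05 in the glands, so that IR-3W and IR-7W did not overlap. This run was singled out after its values were seen, and it has no test of its own. The part of ER status in the difference of this run was not tested. The second probe, A_45_P08065082 at chr10:85001991-85002041, measured -0.71, 0.03 and 0.54 in IR-3W and 0.85, 1.19 and 1.58 in IR-7W, a difference of 1.18 ± 0.19 (SE, limma, adjusted p = 0.109). Of the 13 probes of its run, 11 were higher in IR-7W, but only 2 had an unadjusted p under 0.005. Their differences ran from -0.08 to 1.38. For both probes the adjusted p by limma was 0.0358 with all arrays scaled to the same SD. On the rebuilt LogOdds it was 0.0401 and 0.0434, and without IR-7W 7 it was 0.0336 and 0.0429, for the first and the second probe.

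Irradiated tumors were each compared with the spontaneous tumors, which both comparisons share. IR-3W gave 0 called dense probes by limma, against 0.00860% of all probes (0.00645% higher and 0.00215% lower), and 0 by the methods' t-test, with 2463 at an unadjusted p under 0.05 (10.2%, against 10.2% of all probes). With the scan day as a block 13 dense probes were called for IR-3W (0.0539%, against 0.0785% of all probes), 1 higher and 12 lower than in spontaneous tumors. IR-7W gave 0 against 0% of all probes, and 0 by the methods' t-test, with 945 at an unadjusted p under 0.05 (3.92%, against 3.93%). By limma no dense window was called in either, against 0% of all windows, with 10 and 0 at an unadjusted p under 0.05 (7.25% against 12.0%, and 0% against 3.13%). The difference was positive in 126 of the 138 dense windows for IR-3W and in 133 for IR-7W. Among the 1544 other windows tested it was positive in 960 and 1130. Without IR-3W 1 it was negative in 23 dense windows for IR-3W, against 12 with it. The smallest p for IR-3W belonged to A_45_P07018705 at chr8:124063935-124063980, with -1.23, -0.73 and -0.56 at the lowest, median and highest IR-3W tumor and -0.40, 0.19 and 0.95 in spontaneous tumors, a difference of -1.01 ± 0.19 (SE, limma, adjusted p = 0.252). The next, A_45_P08065205 at chr10:85017452-85017511, lay in the same window as the second age probe and differed by -1.73 ± 0.33 (SE, limma, adjusted p = 0.301). It was above background on only 12 arrays in Cy3 and 13 in Cy5, so this size is uncertain. For IR-7W the smallest belonged to A_45_P21104812 at chr7:120401817-120401861, with 0.82 ± 0.16 (SE, limma, adjusted p = 0.912) and a Cy5 signal above background on 18 arrays. The next, A_45_P04887112 at chr5:154703495-154703554, had a Cy5 signal above background on 1 array of 24 and Cy3 on 15, so no size is given (limma, adjusted p = 0.912).

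The Cy3 channel measured the DNA of each sample without enrichment. Cy3 was higher in dense than in other windows on all arrays, by 0.111 ± 0.020 (SD, n = 24), and the difference was 0.108 ± 0.018 over the 21 tumors and 0.128 ± 0.028 over the 3 glands (SD, exact permutation test, p = 0.125). No dense probe and no dense window was called in Cy3 between tumors and glands by limma, with 921 probes (3.82%, against 3.77% of all probes) and 0 windows at an unadjusted p under 0.05. For IR-3W against spontaneous tumors limma called 0 dense probes and 0 dense windows in Cy3, but 3829 dense probes (15.9%, against 15.8% of all probes) and 3 dense windows had an unadjusted p under 0.05, with window differences from -0.185 to 0.104. The part of this in the comparison of the ratios was not tested. Over the dense windows the tumor-minus-gland difference in Cy3 ran from -0.09 to 0.12. In the windows on chromosomes 4 and 7 with the largest increases it was -0.00 and 0.03.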

How the data were processed

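DNA bound by a methyl-CpG-binding protein was hybridized together with unenriched DNA of the same sample to 105K CpG island arrays. Per the file headers, the authors extracted spot intensity values with Agilent Feature Extraction 10.7.3.1, which subtracts background and normalizes the dyes, on the rn4 design. The deposited series matrix holds log2 ratio values that equaled those of the scanner files within 0.001 for 97.9% to 99.6% of its probes per array. The number of arrays limits the precision. A LogOdds score was rebuilt from the low and the high population of each array, as an alternative only. Unlike the LogOdds of the study it takes no account of melting temperature, and it is not shown to equal them. Genes are not named, because no table used here pairs rn4 probes with genes.

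Log2 of processed Cy5 over Cy3 was taken, outlier spots were left out, and each array was centered on its median. Single values per array were tested by exact permutation in scipy 1.17.1. Probes, and means of windows with 10 or more probes, were fitted with limma 3.58.1 (R 4.3.3) on the groups compared, and adjusted by Benjamini-Hochberg over all probes or all windows. P-values measure the spread between samples, of which 2 rats gave 2 each. The code of the fit was checked on simulated independent noise with 200 probes changed by 4 SD. There 184 were recovered for tumors against glands, with 5 false calls, and 195 for IR-7W against IR-3W, with 13. The simulation held no scan days, no link between probes and no array that stood apart. It therefore does not show what these arrays can detect. Alternatives were the series matrix, normexp, array scaling, LogOdds, a filter on dim probes, blocks (slide, scan day, replicate number), 1 tumor per rat, the methods' t-test, medians, other window limits and single arrays left out. Normexp was run on the median spot signals, without dye normalization and with an offset of 50, so more than the background differs in that setting. The windows named are the 5 with the most probes, the 2 highest and 2 lowest, the 4 largest differences in each direction (called ones where there are any), the 3 with the smallest p between ages, the 3 with the largest SD over tumors and the 2 with the largest share called. The probes named are the 4 called with the largest difference in each direction and the 2 with the smallest p in each comparison between tumor groups. The members and lists were chosen with earlier results of these data known.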

Additional observations from a re-analysis of the deposited data

Results flagged for a closer look

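In 7 tumors of a group, a value was singled out when its gap to the nearest tumor took a large part of the group's range (Dixon's test at 95%). Of 69 such tests, 15 passed. Chance gives about 1 in 20 for independent groups chosen without regard to their values, whereas these windows share arrays, and some were named for their spread over tumors. Tumor 1 of IR-3W accounted for 12 of them, always as the highest. Its dense-minus-other difference was 0.43, against 0.16 to 0.26 in the other IR-3W tumors. Its window means were 4.03 in chr18:0-999999 (others 2.04 to 2.58), 2.55 in chr18:30000000-30999999 (1.58 to 1.82), 2.81 in chr4:76000000-76999999 (1.45 to 1.85), 2.41 in chr7:10000000-10999999 (1.15 to 1.44) and 1.74 in chr7:11000000-11999999 (0.82 to 1.01). They were 1.51 in chr7:114000000-114999999 (0.73 to 0.90), 1.45 in chr7:118000000-118999999 (0.78 to 0.93), 1.58 in chr7:141000000-141999999 (0.79 to 0.95), 1.04 in chr16:19000000-19999999 (0.48 to 0.67), 1.07 in chr19:10000000-10999999 (0.48 to 0.72) and 0.82 in chr1:95000000-95999999 (0.28 to 0.44). The SD over all probes of this array was also the highest of the 24.

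The other 3 were tumor 4 of IR-3W at -0.20 in chr10:46000000-46999999 (others -0.03 to 0.06), tumor 3 of the spontaneous group at -0.11 in chr10:64000000-64999999 (-0.42 to -0.30) and tumor 6 of IR-7W at 0.14 in chr14:82000000-82999999 (-0.15 to -0.05).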

How the results depend on the processing

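Within slides 1 tumor stood against 1 gland, and within scan days 1 tumor against 3. The excess of dense windows averaged over the arrays was positive in every alternative (0.034 on medians), but on medians it was negative in glands 2 and 3. With normexp background correction the tumor-minus-gland excess was -0.007, the share of high ratios -1.39 points and the called windows 1. The share minus that of the other probes, an alternative chosen after seeing the data, gave -0.314. The share differed by 2.49 points for a limit of 2 (exact permutation test, p = 0.114), by 4.48 within slides and 1.58 within scan days, and without single arrays by 1.94 to 4.30. On medians of probes the tumor excess was 0.049, the age difference -0.034 and the called windows 43 (28 higher, 15 lower). Called windows numbered 28 with scaled arrays, 29 on LogOdds, 30 and 10 for windows of 100 and 150 or more probes, 0 with slide or day blocks, and 6 to 19 without single arrays (6 without gland 2, 7 without gland 3). Called dense probes numbered 4 and 148 with slide and day blocks, 3322 for windows of 150 or more, 2332 at an unadjusted p under 0.001 (1082 higher, 1250 lower), and 2164 to 5552 without single arrays (2166 without gland 2, 2164 without gland 3). For the ages, called probes numbered 25 scaled, 40 on LogOdds, 1 with all arrays fitted, 247 at an unadjusted p under 0.005 and 0 to 11 without single arrays (11 without IR-7W 7). For IR-3W against spontaneous tumors they numbered 1 scaled, 13 with the day block (1 higher, 12 lower) and 0 to 1 without single arrays (1 without IR-3W 5). The cause of these shifts was not tested.

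On LogOdds, differences turned to 1.25, 0.87, 0.77 and 1.02 in the 4 windows with the most negative values (chr10:37000000, chr10:46000000, chr19:10000000 and chr1:187000000), and between ages to 0.28 in chr5:151000000 and 0.09 in chr7:118000000. The same 4 windows stayed negative elsewhere, and 3 of them were called lower with normexp, probes above background or medians, as given in the report. Levels of windows moved with medians over probes, to -0.18 in chr1:95000000, 0.02 in chr16:19000000, 0.20 in chr7:11000000, 0.21 in chr7:114000000, 0.67 in chr7:10000000, 3.06 in chr18:0, 2.48 in chr18:30000000 and -0.45 in chr10:37000000, and with normexp, to 1.24 in chr18:0, 0.92 in chr18:30000000, 1.08 in chr4:76000000, 0.82 in chr7:10000000, 0.56 in chr7:11000000, 0.44 in chr7:114000000, -0.07 in chr10:37000000 and -0.11 in chr10:64000000.

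The labels do not pair samples by replicate number. With the replicate number as a block, the tumor excess was 0.057 and the age difference -0.055, the share differed by 4.29 points and Cy3 by -0.020, 3575 dense probes and 15 windows were called for tumors, and 0 were called between tumor groups. Of 24 arrays, 5 correlated best with their own number.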
